A study of Mus musculus with 25 samples.

Results

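Mitosis genes were followed through 14 stages of mouse liver development. The set held 32 genes whose products drive the separation of chromosomes and of daughter cells, chosen by symbol. Of these, 31 were measured among the 18194 genes of the table, and Ccnb1 had no probe set annotated to it alone. Each gene was read from its brightest probe set by the mean log2 level of the 14 stages, so the choice of probe set used these arrays but not any comparison between them.

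Livers of random-bred C57/B6 mice were pooled at each stage before RNA extraction, and biotin-labelled RNA was hybridised to Affymetrix arrays. The 3 late postnatal pools came from days 14 and 21 after birth (Day14, Day21) and from adult mice at 18 weeks (NL in the labels), with 3 livers each. The 3 early postnatal pools came from the day of birth (Day0), Day3 and Day7, also with 3 livers each. The 8 fetal pools covered each embryonic day from E11.5 to E18.5, and the number of livers in a pool was 12 for E11.5, 9 for E12.5 or E13.5, 6 for E14.5 or E15.5 and 3 for later days. The split of the postnatal pools between Day7 and Day14 was a choice of the re-analysis, and the pools of a class stood in as its replicates although they differ in age.

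In dividing cells, cyclin A2 and B-type cyclins switch on the kinase Cdk1, which together with Polo-like and Aurora kinases builds the spindle. A checkpoint then holds back the anaphase-promoting complex until every chromosome is attached, and the complex ends mitosis by marking cyclins for destruction. Most genes of this machinery are transcribed only late in the cell cycle, through promoter elements that the MuvB complex uses to repress them in resting cells and, with B-Myb and FoxM1, to activate them in dividing ones. The fetal liver is the main site of blood formation before bone marrow takes over, and its hepatoblasts divide too, whereas most hepatocytes of the adult liver rest.

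Levels are log2 intensities, on which 1 unit is a 2-fold difference, averaged over the 2 arrays of a pool or taken from its 1 array at E18.5, Day7 and Day14. Repeat arrays of a pool correlated at r = 0.986 to 0.996 across genes, and over the members their standard deviation was 0.114 to 0.341. The median level of an array lay between 5.41 and 5.53, and no value was 0 (lowest intensity 12.6). The 14 hepatocyte markers measured summed to intensities of 109900 to 143500 in late, 104200 to 135200 in early and 17810 to 112800 in fetal pools. The first repeat array was higher than the second in 19 to 29 of the 31 members at each of the 11 stages with both, by a median of 0.08 to 0.37, against 0.004 to 0.07 for all genes, and the 3 stages with 1 array have only a first. Marker levels set 2 pools apart. The 12 skeletal muscle markers summed to 2232 at E18.5 and to 490.5 to 595.2 in the other 13 pools, and the 8 pancreas markers to 1583 at Day14 and to 568.3 to 956.8 in the others. Without E18.5, 29 members were called lower in late against fetal pools, 24 in late against early pools, 15 in early against fetal pools and 4 over the fetal span, and without Day14 29, 19 and 6 were in the first 3 of these comparisons. The counts with both are given in turn, and the shares of all genes beside them belong to the fits with all pools.

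Late postnatal livers had far lower levels of nearly all mitosis genes than fetal livers. Of the 31 members 28 fell and none rose, with a change called at a limma adjusted p under 0.05 over all genes and at least 1 log2 unit, where 7.22% of all genes were called lower and 5.41% higher. The median change of the members was -2.90 log2 units, against 0.03 for all genes. In 29 members every late pool lay below every fetal pool, as it did in 11.2% of all genes. In such bulk samples fewer dividing cells and less RNA per dividing cell cannot be told apart.

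The change was largest in Mki67, which encodes the Ki-67 protein of the chromosome surface, the usual stain for dividing cells. Its level was 7.19, 6.46 and 5.20 at Day14, Day21 and 18 weeks, against a lowest value of 9.81, a median of 11.76 and a highest of 12.12 in the 8 fetal pools. All late pools were below all fetal pools, and the difference was -5.30 ± 0.51 (SE, 3 late and 8 fetal pools), a 39.4-fold fall (adjusted p = 2.22e-05). Top2a, the topoisomerase that untangles sister chromatids, had 6.66, 5.29 and 4.64 in the late pools, against 9.55, 9.98 and 10.46 as the lowest, median and highest fetal values. It fell by 4.48 ± 0.32 (adjusted p = 2.71e-06), again without overlap. The centromere histone Cenpa and the kinetochore motor Cenpe fell by 2.90 and 2.08.

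Among the cyclins, Ccnb2 had 6.69, 5.65 and 5.46 in the late pools, against 9.52, 9.73 and 10.25 as the lowest, median and highest fetal values. The groups did not overlap, and it fell by 3.88 ± 0.25 (14.7-fold, adjusted p = 1.52e-06). Ccna2, which pairs with Cdk1 before and at mitotic entry, fell by 3.93, and Cdk1 itself changed by -3.16. Cdc25c, a phosphatase that activates Cdk1, had 6.58, 6.07 and 5.78 in late pools, against 6.30, 6.49 and 7.02 as the lowest, median and highest fetal values. Its classes overlapped and its difference of -0.45 ± 0.18 was not called (adjusted p = 0.0912).

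All 6 mitotic kinases and passenger proteins fell, from Nek2 (-1.94), a centrosome kinase, to Birc5 (-4.42). Birc5, or survivin, is a subunit of the chromosomal passenger complex, and had 6.62, 5.52 and 4.84 in late pools, against 9.23, 10.23 and 10.52 as the lowest, median and highest fetal values. Its partners in the complex, the kinase Aurkb (-2.43) and borealin, encoded by Cdca8 (-3.39), fell too, as did the centrosomal kinase Aurka (-3.62) and Plk1 (-2.14). The spindle checkpoint genes Bub1 (-3.89), Bub1b (-1.97) and Mad2l1 (-2.03) fell, and the checkpoint kinase Ttk (-1.27 ± 0.43) was not called (adjusted p = 0.0516). Both partners of the anaphase-promoting complex fell, its ubiquitin-conjugating enzyme Ube2c by 4.15 and its activator Cdc20 by 4.05.

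All 5 genes of spindle motors and microtubule-bound proteins fell. Nusap1, which bundles spindle microtubules, had 5.85, 4.88 and 4.62 in late pools, against 8.04, 9.66 and 10.22 as the lowest, median and highest fetal values. It fell by 4.46 ± 0.42, without overlap. The spindle assembly factor Tpx2 (-2.82), the bipolar spindle motor Kif11 (-2.43), the microtubule-depolymerising Kif2c (-3.19) and the chromosome-bound Kif22 (-1.94) fell too. The 5 genes of the midzone and of cytokinesis fell as well. Anln, which encodes the contractile ring protein anillin, fell by 3.65, Ect2, the exchange factor that turns on RhoA at the cleavage site, by 3.27, and the midzone bundler Prc1 by 2.43. The midzone kinesins Kif20a (-1.95) and Kif23 fell least of the 5. Kif23 had 8.08, 7.75 and 7.61 in late pools, against 8.46, 8.85 and 9.18 as the lowest, median and highest fetal values, without overlap, and its difference was -1.03 ± 0.19 (adjusted p = 0.00199).

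Foxm1, the transcription factor that activates many of these genes, was not called. It had 6.94, 6.70 and 6.84 in late pools, against 6.96, 7.20 and 7.43 as the lowest, median and highest fetal values. Its classes did not overlap, yet the difference was only -0.35 ± 0.11 and missed the size of 1 log2 unit (adjusted p = 0.0389). Its 3 other probe sets differed by -0.45, -0.26 and 0.09. With arrays scaled to equal housekeeping levels the difference of Foxm1 turned to 0.05, the median of all genes moved to 0.44 and that of the members to -2.49, and 27 members were called lower.

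**Figure D1:**
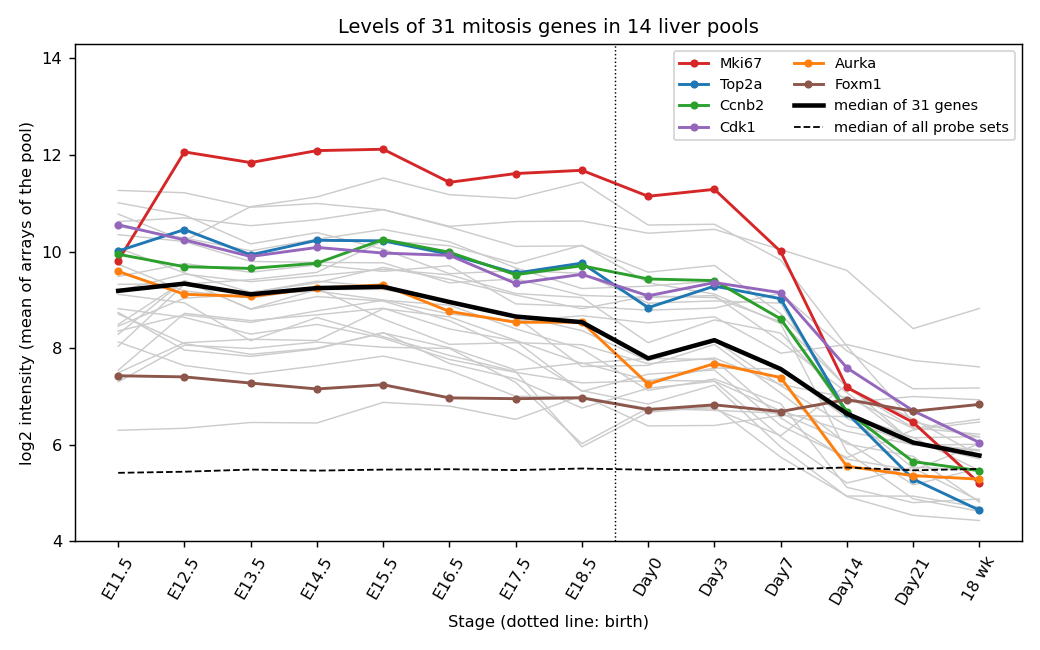
Log2 intensity (vertical axis) of the 31 mitosis genes in the 14 pools in order of age (horizontal axis), in grey with 6 genes in colour, the members' median as a thick black line and the median of all probe sets dashed. Mki67, Top2a, Ccnb2, Cdk1 and Aurka fall towards the dashed line after birth, while Foxm1 stays between 6.69 and 7.43 throughout.

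**Figure D2:**
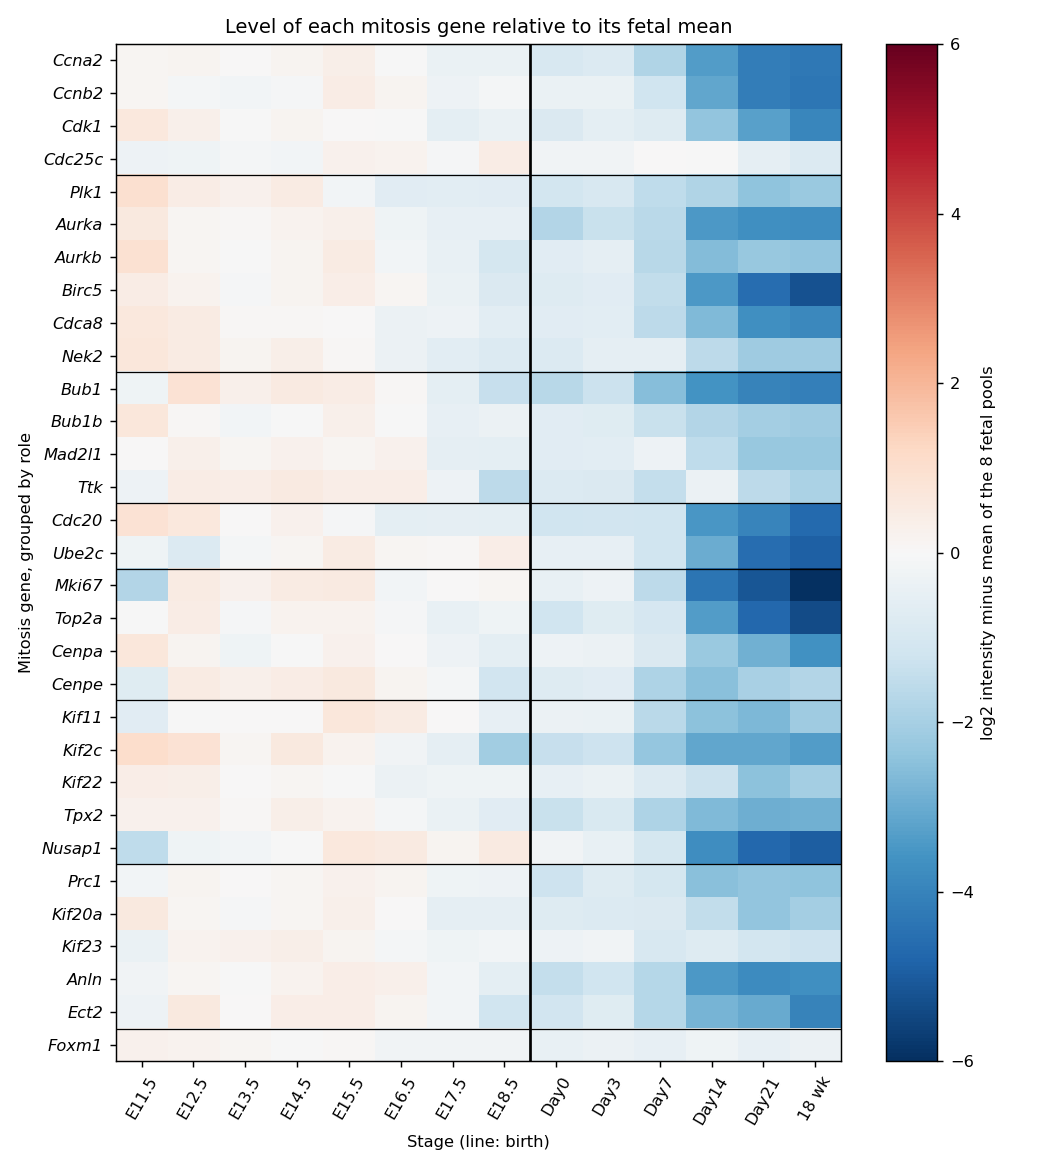
Log2 intensity of each member (lines of the map, grouped by role) at each stage (columns) minus its mean over the 8 fetal pools, with birth as a vertical line. Blue deepens from Day7 to 18 weeks in nearly all genes, and Foxm1, Cdc25c, Kif23 and Ttk stay palest.

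Because members fell together, their promoters were read in the RefSeq table of build GRCm38.p6, as windows from 250 bases before to 50 after each start. The table held 27 windows for 25 of the 31 measured members and not Ccna2, Cdc25c, Aurkb, Kif20a, Tpx2 or Foxm1. They were searched on both strands for the cell cycle genes homology region (CHR, as TTTGAA or TTTAAA), the MuvB element, and for CCAAT, the box of the factor NF-Y. A CHR stood in 23 of the 27 windows (85.2%), against 27.6% of all 32851 promoter windows. CCAAT stood in 22 (81.5%, against 37.4%), both in 20 (74.1%, against 10.7%), and at least 2 CCAAT boxes in 15 (55.6%, against 11.7%). In 20 member windows (74.1%) a CHR lay within 50 bases of the start, against 8.28% of all windows, a distance set after the positions had been seen. In 1 window, that of Cdca8, a CHR and a CCAAT overlapped.

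Of the other gene lists, a CHR stood in 61.8% of 68 windows of other mitosis genes, 34.4% of 32 windows of DNA replication genes, 17.6% of 17 of cell cycle inhibitors and 7.14% of 14 of anaphase-promoting complex subunits. A match shows only the letters and not that a factor binds. The windows of the 8 members with the largest falls in late against fetal pools, among those with an entry, are shown in order of the fall, with each CHR and CCAAT, on either strand, in capitals. Each is written 5′ to 3′ along the strand of its gene, and its start is the base after the first 250.
Mki67, chr7:135716330-135716629, minus strand: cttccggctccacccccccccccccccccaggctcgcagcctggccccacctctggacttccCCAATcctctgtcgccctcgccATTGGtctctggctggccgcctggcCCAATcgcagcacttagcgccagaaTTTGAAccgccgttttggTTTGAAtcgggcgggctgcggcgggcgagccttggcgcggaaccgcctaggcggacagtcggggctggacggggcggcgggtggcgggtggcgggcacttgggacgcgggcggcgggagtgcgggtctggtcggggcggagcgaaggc
Top2a, chr11:99024140-99024439, minus strand: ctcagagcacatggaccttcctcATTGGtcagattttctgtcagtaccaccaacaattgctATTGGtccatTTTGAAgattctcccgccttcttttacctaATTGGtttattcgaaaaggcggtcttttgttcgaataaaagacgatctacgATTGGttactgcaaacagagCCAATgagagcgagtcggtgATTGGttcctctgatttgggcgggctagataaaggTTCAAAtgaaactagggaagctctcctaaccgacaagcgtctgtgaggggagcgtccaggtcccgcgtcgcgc
Nusap1, chr2:119618048-119618347, plus strand: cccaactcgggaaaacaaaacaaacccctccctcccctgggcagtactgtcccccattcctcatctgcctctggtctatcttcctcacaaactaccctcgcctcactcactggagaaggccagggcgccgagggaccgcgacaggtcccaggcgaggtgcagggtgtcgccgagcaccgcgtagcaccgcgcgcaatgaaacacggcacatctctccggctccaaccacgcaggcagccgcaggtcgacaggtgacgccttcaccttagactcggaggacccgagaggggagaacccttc
Birc5, chr11:117848987-117849286, plus strand: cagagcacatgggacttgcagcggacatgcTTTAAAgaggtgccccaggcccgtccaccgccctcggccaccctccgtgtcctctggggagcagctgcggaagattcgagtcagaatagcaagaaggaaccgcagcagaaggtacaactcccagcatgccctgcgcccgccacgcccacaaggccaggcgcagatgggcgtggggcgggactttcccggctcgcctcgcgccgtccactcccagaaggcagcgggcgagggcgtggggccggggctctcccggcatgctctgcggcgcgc
Ube2c, chr2:164769679-164769978, plus strand: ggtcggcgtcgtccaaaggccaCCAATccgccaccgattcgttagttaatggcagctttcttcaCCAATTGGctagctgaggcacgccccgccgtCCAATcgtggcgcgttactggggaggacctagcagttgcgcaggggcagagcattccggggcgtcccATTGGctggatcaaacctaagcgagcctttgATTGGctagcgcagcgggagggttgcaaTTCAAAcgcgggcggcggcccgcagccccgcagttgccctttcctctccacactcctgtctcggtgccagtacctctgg
Cdc20, chr4:118437294-118437593, minus strand: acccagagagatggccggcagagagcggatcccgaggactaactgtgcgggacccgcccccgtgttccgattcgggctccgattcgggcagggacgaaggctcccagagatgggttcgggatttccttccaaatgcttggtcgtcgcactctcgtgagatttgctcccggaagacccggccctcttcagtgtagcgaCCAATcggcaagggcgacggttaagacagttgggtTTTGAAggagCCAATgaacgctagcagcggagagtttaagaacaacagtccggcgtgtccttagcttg
Bub1, chr2:127831810-127832109, minus strand: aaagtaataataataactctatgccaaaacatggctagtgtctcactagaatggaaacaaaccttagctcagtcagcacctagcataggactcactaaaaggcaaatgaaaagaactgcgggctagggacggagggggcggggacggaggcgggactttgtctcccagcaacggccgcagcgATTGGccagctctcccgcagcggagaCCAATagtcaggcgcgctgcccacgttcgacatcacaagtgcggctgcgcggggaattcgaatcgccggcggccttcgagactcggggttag
Ccnb2, chr9:70421505-70421804, minus strand: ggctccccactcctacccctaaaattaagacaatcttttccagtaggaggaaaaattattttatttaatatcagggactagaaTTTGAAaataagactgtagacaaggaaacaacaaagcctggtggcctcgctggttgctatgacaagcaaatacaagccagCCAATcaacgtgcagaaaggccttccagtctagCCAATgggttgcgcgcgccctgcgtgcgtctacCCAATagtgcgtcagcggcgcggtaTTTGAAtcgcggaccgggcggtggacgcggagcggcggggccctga
With the start as base 1, a CHR began at -98 and -116 in Mki67, at -23 and -179 in Top2a, at -220 in Birc5, at -29 in Ube2c, at -18 in Cdc20, and at 5 and -167 in Ccnb2. The 6 CCAAT boxes of Top2a and of Ube2c, the 3 of Mki67 and of Ccnb2 and the 2 of Cdc20 and of Bub1 all lay before the start, and those at -186 and -183 in Ube2c overlap each other. The 8 windows thus differ: Birc5 had no CCAAT, Bub1 had no CHR and Nusap1 had neither. Mad2l1, which is not shown, also had neither.

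In the first week after birth a few mitosis genes were already called below their fetal levels. In early postnatal against fetal pools, 6 of 31 members fell and none rose, where 0.616% of all genes were called lower and 2.8% higher. All 31 differences were negative, with a median of -0.95, against -0.003 for all genes. In 14 members every early pool lay below every fetal pool, as in 2.36% of all genes.

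The 6 genes were Bub1, Aurka, Anln, Tpx2, Ccna2 and Prc1. Aurka had 7.25, 7.68 and 7.39 at Day0, Day3 and Day7, against 8.54, 9.09 and 9.59 as the lowest, median and highest fetal values. All its early pools lay below all fetal pools, and it fell by 1.58 ± 0.21 (SE, 3 early and 8 fetal pools; adjusted p = 0.00203). Bub1 had 6.84, 7.24 and 5.96 in the early pools, against 7.12, 8.69 and 9.40 as the lowest, median and highest fetal values. Its difference was -1.84 ± 0.41 (adjusted p = 0.0245), although its Day3 pool overlapped the fetal range at E18.5. Anln fell by 1.47 ± 0.19, Tpx2 by 1.35 ± 0.23, Ccna2 by 1.18 ± 0.25 and Prc1 by 1.03 ± 0.13.

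Mki67, Top2a and Nusap1, with the largest differences between late and fetal pools, were not among these 6. Mki67 differed by -0.77 ± 0.51 (adjusted p = 0.412), Nusap1 by -0.58 ± 0.42 and Ccnb2 by -0.67 ± 0.25. The lowest fetal pool of Mki67 and of Nusap1 was E11.5, at 9.811 and 8.038. All early pools of Mki67 lay below its next fetal pool (11.435). In Nusap1 the next fetal pool (9.327) lay below Day0 (9.354). Kif2c differed by -1.65 ± 0.53, with fetal values spread from 5.96 at E18.5 to 9.12 at E11.5, and was not called (adjusted p = 0.0904). Cdc25c (-0.13), Foxm1 (-0.43) and Kif23 (-0.48) had the smallest differences. The count depended on the pools: it was 15 without E18.5, 3 without Day7, 0 when Day7 was moved to the late class and 17 when Day14 was moved to the early one. The share of all genes given above belongs to the main split, and the shares in these settings are not given here.

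After the first week more members were called. In late against early postnatal pools 19 members fell and none rose, where 1.53% of all genes were called lower and 0.209% higher. The members' median change was -1.64, against 0.02 for all genes, and 26 members had every late pool below every early pool, as had 14.4% of all genes. This comparison and that of early with fetal pools share the 3 early pools, and whether their changes differ was not tested.

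Mki67 had 7.19, 6.46 and 5.20 in the late pools, against 11.15, 11.29 and 10.003 in the early pools, and fell by 4.53 ± 0.61 (23.1-fold, adjusted p = 0.00189). Nusap1 had 5.85, 4.88 and 4.62 in the late pools, against 9.35, 9.12 and 8.51 in the early pools, and fell by 3.88 ± 0.50. Top2a had 6.66, 5.29 and 4.64 in the late pools, against 8.84, 9.29 and 9.02 in the early pools, and fell by 3.52 ± 0.39. In each of the 3 genes the highest late pool was Day14, and it lay below the lowest early pool.

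Birc5 (-3.43), Ube2c (-3.42), Ccnb2 (-3.21), Cdc20 (-2.86), Ccna2 (-2.75), Cdca8 (-2.43), Cdk1 (-2.42), Cenpa (-2.39), Anln (-2.18), Ect2 (-2.07) and Aurka (-2.04) fell by more than 2 log2 units. Kif11, Mad2l1, Tpx2, Prc1 and Kif22 fell by 1.35 to 1.64. Bub1 (-2.05, adjusted p = 0.0532), Kif2c (-1.54) and Aurkb (-1.48) were not called. Foxm1 (0.08), Ttk (-0.23) and Cdc25c (-0.32) differed least, and each had overlapping classes. With equal housekeeping levels Ttk stood at 0.14 and Cdc25c at 0.05, and the median of all genes at 0.39. The number of members called was 5 with Day7 in the late class, 10 with Day14 in the early class and 12 without probe sets that can match several transcripts. For these settings, too, the share of all genes called is not given.

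**Figure D3:**
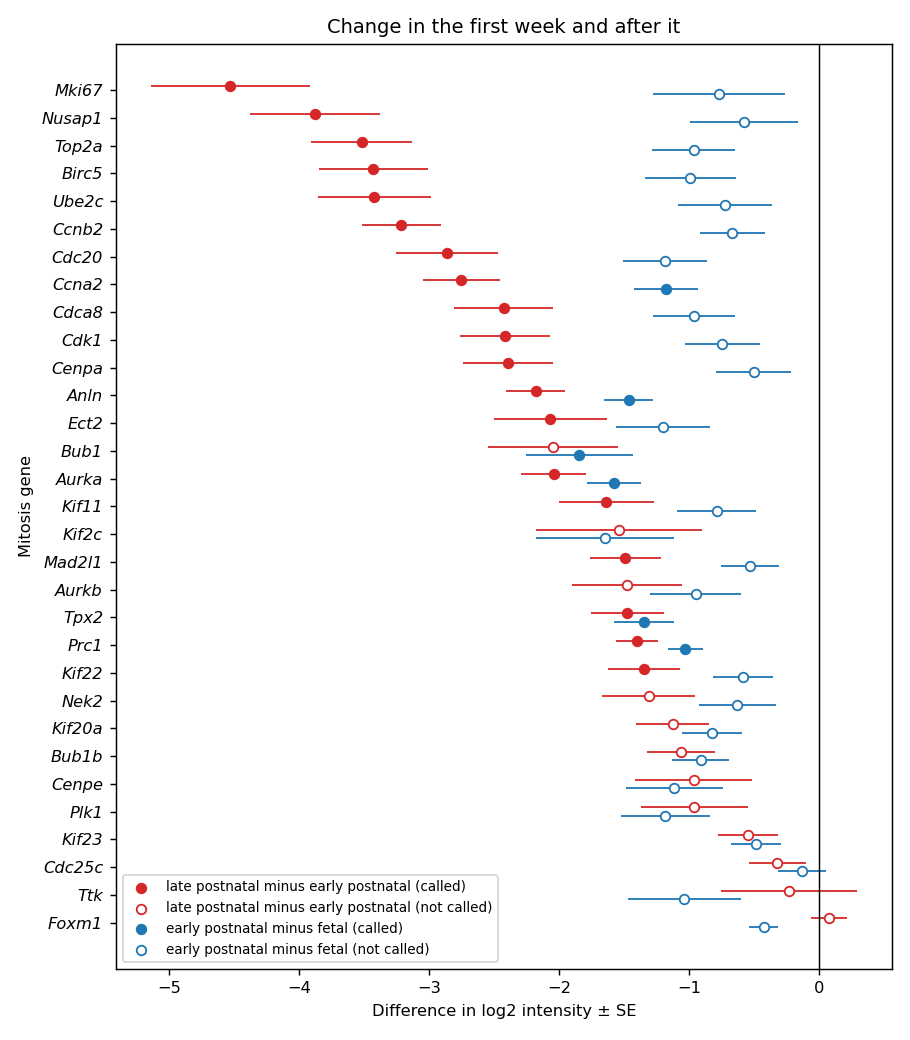
Difference in log2 intensity with its standard error (horizontal axis) for each member (vertical axis), for late minus early postnatal pools in red and early postnatal minus fetal pools in blue, with filled points for called changes. Mki67, Nusap1 and Top2a, at the top, have red points between -4.53 and -3.52 and open blue points within 1 unit of 0, while Aurka and Anln are filled in both colours.

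Between neighbouring stages, the step from Day7 to Day14 held the most called falls and the lowest median. The steps cover unequal spans of time, longer after birth than before it, so neither their counts nor their medians are rates. These steps compare 2 pools each, their errors come from repeat arrays alone, and stages with 1 array are assumed to vary like the others. At E18.5 against E17.5, 4 members fell (1.8% of all genes were called lower), namely Kif2c (-1.56), Ttk (-1.27), Cenpe (-1.05) and Ect2 (-1.03), while the members' median was -0.05. The skeletal muscle markers rose in the same step, with 6 of 12 called higher and a median of 1.29, and their part in these values was not tested. At Day0 against E18.5 only Aurka fell, by 1.28 ± 0.21 (2.25% of genes lower), with a members' median of -0.27. The count was 2 for the E18.5 step without the first repeat of E17.5 and 6 for the birth step without the first repeat of Day0.

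From Day0 to Day3 no member was called in limma, lower (1.1% of genes) or higher (1.81% of genes), and 2 had an unadjusted p under 0.05. The median change was 0.11, and 24 of 31 members were higher at Day3, with Prc1 (0.47) and Top2a (0.45) at the top. At Day7 against Day3, 29 members were lower and 7 fell (2.84% of genes), with a median of -0.61. These were Mki67 (-1.29), Bub1 (-1.28), Kif11 (-1.21), Aurkb (-1.15), Cenpe (-1.15), Kif2c (-1.04) and Ect2 (-1.01), and 2 were called without the first repeat of Day3. In this step 17 of 22 erythroid markers fell, with a median of -1.97, and their part in the members' fall was not tested.

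At Day14 against Day7, 16 members fell (4.57% of genes) and the median was -1.06. Mki67 was 7.19 at Day14, against 10.003 at Day7, a 7.04-fold fall (adjusted p = 8.2e-05). Nusap1 fell by 2.66, Top2a by 2.36, Cdc20 by 2.29, Birc5 by 1.97, Ccnb2 by 1.92 and Aurka by 1.84, and the smallest called fall was that of Nek2 (1.02). Ttk alone rose, with 7.25 at Day14, against 6.19 at Day7 (1.16% of genes were called higher), and then fell by 1.20 at Day21. Both pools had 1 array, so no array could be left out. Of 14 granulocyte markers 9 fell in the same step (median -2.78), and the 8 pancreas markers summed to 1583 at Day14, against 948.4 at Day7. The part of these cells in the members' values was not tested.

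At Day21 against Day14, 7 members fell (0.528% of genes), with a median of -0.55, led by Ube2c (-1.56), Top2a (-1.37), Kif22 (-1.20) and Ttk (-1.20). With the replicate number of the arrays as a block, 4 fell. At 18 weeks against Day21 only Mki67 fell, by 1.26 (1.2% of genes), and the median was -0.13. The count was 2 without the second repeat of the adult pool. In the adult pool 12 of 31 members lay below the median of all probe sets, against 8 at Day21, 4 at Day14 and none before. The table holds no detection calls.

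**Figure D4:**
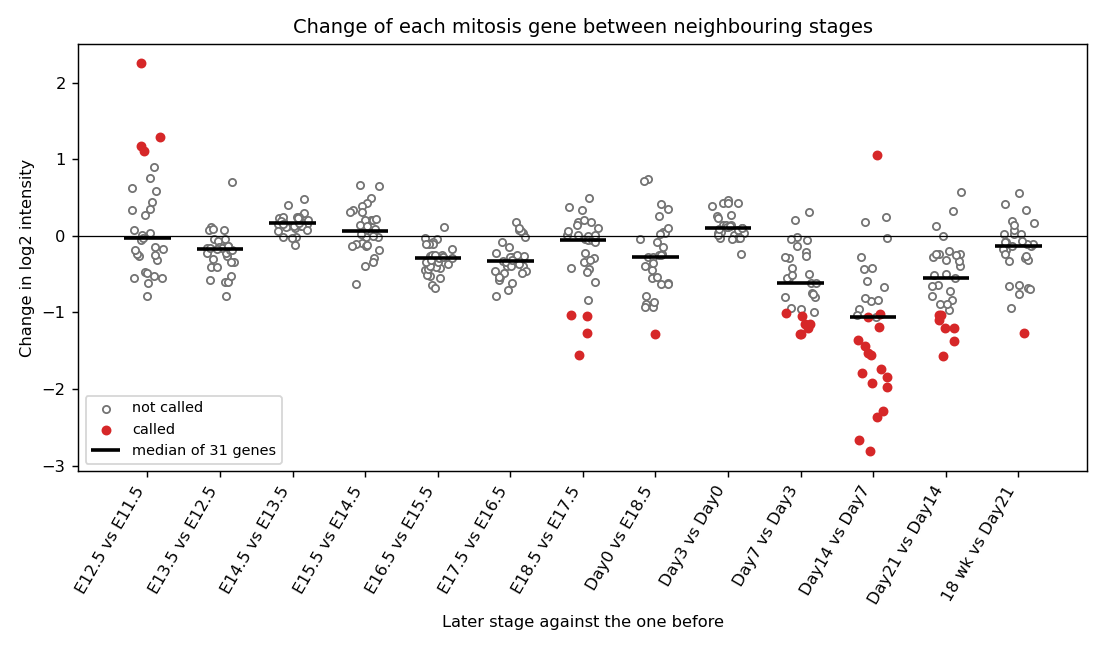
Change in log2 intensity of each of the 31 members (vertical axis) between neighbouring stages (horizontal axis), with called changes in red and the median as a black bar. The medians lie at 0.11 for Day3 against Day0, -0.61 for Day7 against Day3 and -1.06 for Day14 against Day7, and Ttk is the red point above 0 at Day14.

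The timing was also read as the day on which a gene last crossed the midpoint between its fetal mean and its adult level, on the log2 scale with days placed at log2(day + 1). It is a description with no test and is given for the 29 members with a drop of at least 1 log2 unit, which leaves out Cdc25c and Foxm1. The median was day 8.38, or 10.4 with the first repeats left out and 7.95 with the second left out, and the days ran from 3.48 for Cenpe to 17.1 for Ttk. The crossing lay between Day3 and Day7 in 9 members, between Day7 and Day14 in 19, and between Day14 and Day21 in Ttk. Ttk had also crossed its midpoint between Day3 and Day7, with 74.7% of its log2 drop done at Day7. It stood at 18.9% in the Day14 pool, which has 1 array, so its late day follows from counting the last crossing. The 9 early ones were Cenpe, Plk1 (3.86), Kif2c (4.25), Kif11, Kif23, Bub1b, Aurkb, Tpx2 (5.01) and Bub1 (5.03). Among the latest were Cdk1 (11.8), Top2a (11.6), Cenpa (11.5), Mad2l1 (11.3) and Ube2c (11.3), with Mki67 and Birc5 at 10.5. Each midpoint follows the gene's own drop, so a gene with a larger drop crosses it at a lower share of its fetal level. At Day7 the shares of Mki67 (33.4%) and Birc5 (35.7%) lay near those of Plk1 (35.1%) and Bub1b (39.8%). That of Cdk1 (57.7%) lay above that of Cenpe (27.7%). Members of 1 role were found on both sides, such as Aurkb (4.98) and Birc5 of the passenger complex. The drops of these 2 genes to the adult level were 2.37 and 5.24 log2 units. Their shares of the fetal level were 31.5% and 35.7% at Day7 and 16.2% and 9.11% at Day14.

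As a share of the fetal level (the geometric mean of the 8 fetal pools), the median member stood at 57.9% at Day0, 62% at Day3, 39.8% at Day7, 16.2% at Day14, 13.3% at Day21 and 9.84% at 18 weeks. At Day7, 21 of 31 members were under 50% of their fetal level, as were 6.06% of all genes. At 18 weeks 26 members were under 25%, as were 2.75% of all genes, and 16 were under 10%, as were 140 of the 18194 genes. Mki67 was at 1.2%. The lowest share at Day0 was that of Aurka (29.4%), followed by Bub1 (31.2%) and Anln (36.5%), whereas Cdc25c (86.6%) and Nusap1 (85.9%) had the highest. Both had been higher at E18.5, Cdc25c at 7.02 against 6.39 at Day0 and Nusap1 at 10.13 against 9.35. The fetal mean of Nusap1 includes its low E11.5 pool (8.04).

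Within fetal life the members differed in course. Along a straight line from E11.5 to E18.5, 6 members fell (12% of all genes were called lower) and 1 rose (4.4% of genes were called higher), and the median change over the span was -0.76, against 0.04 for all genes. Those that fell were Kif2c by 2.55 ± 0.47, Plk1 by 1.71 ± 0.23, Nek2 by 1.53 ± 0.16, Cdc20 by 1.51 ± 0.20, Aurkb by 1.41 ± 0.35 and Cdca8 by 1.17 ± 0.13 (SE, 8 fetal pools). The count of members called lower was 4 without E18.5, and 4 to 9 over all settings with 1 pool or array left out. The shares of all genes in these settings are not given here. Nusap1 rose by 1.63 ± 0.43 (adjusted p = 0.0246), and without the E11.5 pool it was no longer called. Plk1 had 9.74, 9.19, 9.04, 9.24, 8.61, 8.08, 8.12 and 8.07 from E11.5 to E18.5. Its highest pool was E11.5, and the 3 pools from E16.5 on were its lowest.

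The highest fetal pool was E11.5 in 14 members, E15.5 in 9, E12.5 in 4, E14.5 in 3 and E18.5 in 1, and the lowest was E18.5 in 16. E18.5 was measured on 1 array and held the highest skeletal muscle markers. The share of all genes with their lowest fetal pool there is not given here. At E12.5 against E11.5, 4 members rose (1.71% of genes were called higher), with Mki67 at 12.06 (E12.5) against 9.81 (E11.5). Nusap1 (1.29), Cenpe (1.18) and Bub1 (1.11) were the other 3. Cdc20, Cdk1, Plk1 and Aurka were instead highest at E11.5, at 11.01, 10.56, 9.74 and 9.59. Mki67 over the fetal span stood at 0.81 ± 0.71 with all 8 pools and at -0.48 without E11.5, and was called in neither.

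Along the 6 pools from Day0 to 18 weeks, on log2(day + 1), no member was called lower by limma, and no gene of the table was (0%), although 27 members and 2540 of 18194 genes had an unadjusted p under 0.05. The estimates were large, -7.04 ± 1.28 for Mki67, -5.74 ± 1.23 for Nusap1 and -5.31 ± 1.03 for Birc5, with an adjusted p of 0.178 for each. With the stages spaced evenly in place of log2(day + 1), Cdca8 and Cenpa were called.

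Where a gene had several probe sets these did not always move alike. There were 69 sets for the 31 genes, 42 of them lower and none higher in late against fetal pools. The share of all probe sets called in this comparison is not given here. The shares of all genes given above belong to 1 set per gene, the brightest, so these counts stand without a background. Of the 22 genes with several sets, 6 had all of them called lower (Aurkb, Ccna2, Cdca8, Kif11, Kif22 and Prc1), 13 had some and 3 had none (Cdc25c, Foxm1 and Ttk). The sets not called included dim ones, such as a second set of Aurka with a mean level of 4.59 and a difference of -0.12, and the second set of Nusap1 (5.06 and -0.30), but also brighter ones of Cdc20 (6.84 and -0.24), Kif2c (6.82 and -0.34) and Tpx2 (6.72 and 0.12, 6.58 and 0.09). A set of Cenpa differed by 0.53. For Cenpa the only set that fell can match several transcripts, and without such sets the difference was -0.88 and not called.

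Other genes of the cell cycle, from lists that do not overlap the members, fell too. In late against fetal pools 53 of 70 other mitosis genes fell and none rose (median -1.84), among them the condensin subunits Smc2 (-4.45) and Ncapd2 (-3.70), the cohesin regulator sororin, Cdca5 (-3.98), and the Cdk1 phosphatase Cdc25b (-3.71). Of 35 DNA replication genes 28 fell (median -2.49), among them the ribonucleotide reductase subunit Rrm2 (-4.65) and the origin licensing factors Cdc6 (-4.30) and Cdt1 (-3.98). Of 12 G1 cyclins, kinases and their regulators 7 fell, led by cyclin D3, Ccnd3 (-2.53). The list of MuvB subunits with B-Myb had 4 of 6 lower, namely Lin54 (-1.70), Mybl2 (-1.69), Rbbp4 (-1.68) and Lin9 (-1.21), while Lin37 (-0.26) and Lin52 (0.00) were not called.

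Of 13 genes of the anaphase-promoting complex, its cofactor Fzr1 included, 6 fell, with Cdc23 (-2.11) first, and the median was -0.89. Of 18 genes that restrain the cell cycle, 6 fell and none rose, and those that fell included Rb1 (-3.71), its relative Rbl1 (-2.94) and the Cdk inhibitors Cdkn1c (-3.02) and Cdkn2d (-2.69). Of 14 housekeeping genes 4 fell and 1 rose (median -0.45). In late against early pools 21 of 70 other mitosis genes and 13 of 35 replication genes fell, and in early against fetal pools 8 and 5 did, with medians of -0.92, -1.46, -0.81 and -0.91. Over the fetal span 20 of 35 replication genes and 9 of 12 G1 genes fell, against the 6 of 31 members, and this difference between lists was not tested. Uhrf1 (-2.85), which carries DNA methylation through replication, and cyclin D1, Ccnd1 (-3.01), had the lowest values of these 2 lists.

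Markers of blood cells were followed over the same stages. The 22 erythroid markers measured, which include Gata1 and Klf1, summed to intensities of 2781 to 3557 in late, 8811 to 23210 in early and 16580 to 48780 in fetal pools. In late against fetal pools 19 of them fell (median -3.84). Their midpoint day was 5 in the median and before Day7 in 16 of the 19 that had one, against 9 of 29 among the members. The other mitosis genes lay closer to the erythroid markers, with a median day of 5.91. Of the 54 of them that had a day, 32 crossed before Day7, so the later median of the members (8.38) does not hold for mitosis genes at large. The 14 granulocyte markers, such as Ltf and Ngp, summed to 1225 to 2324 in late, 23220 to 36710 in early and 2829 to 40390 in fetal pools, and 3 of them fell in late against fetal pools. All 9 of them with a midpoint day crossed it between Day7 and Day14, with a median of 12. The mean log2 level of the 14 markers rose from 6.77 at E14.5 to 10.23 at E18.5 and was 10.12 at Day0. Their fetal mean thus includes low early pools, which sets the midpoint lower and its day later than the level at birth would.

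The members' own sum was 2342 to 4072 in late, 9658 to 15010 in early and 18980 to 28140 in fetal pools. Macrophage markers summed to 4539 to 7844 in late, 8479 to 16480 in early and 1869 to 11070 in fetal pools, and the 6 hepatoblast markers, Afp and Dlk1 among them, to 9017 to 26230, 29920 to 39060 and 15960 to 37580 in the same order. The stem and progenitor markers summed to 1271 to 1322 in late, 1863 to 2947 in early and 3415 to 5156 in fetal pools. The part of these cells in the members' fall was not tested.

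**Figure D5:**
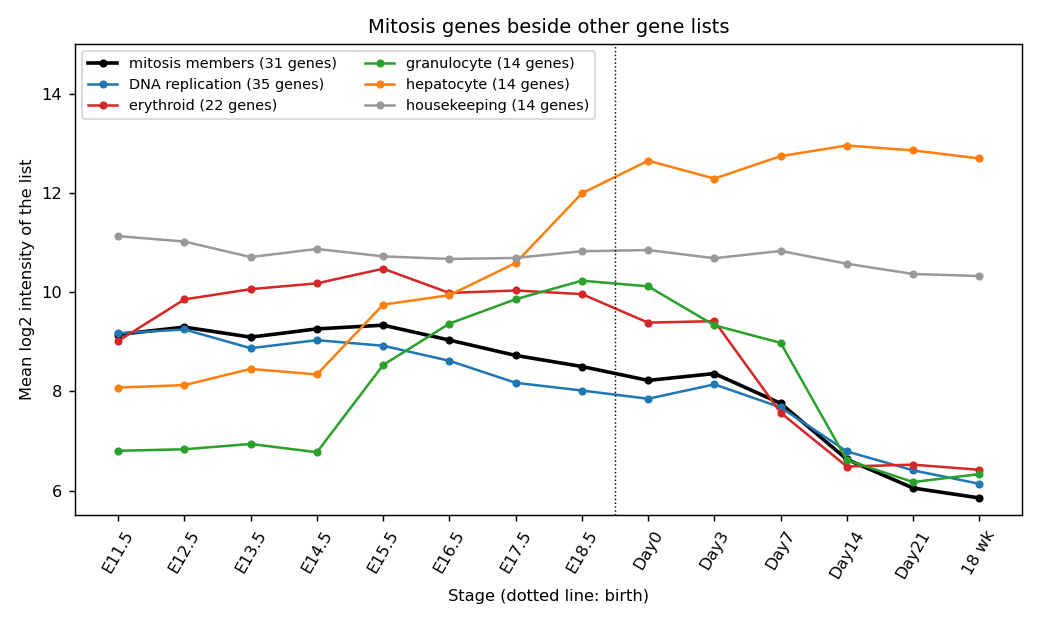
Mean log2 intensity (vertical axis) of the mitosis genes and of 5 other gene lists over the 14 pools in order of age (horizontal axis). The mitosis genes and DNA replication genes have lower means at each stage after Day3, the erythroid markers have their steepest drop between Day3 and Day7, the granulocyte markers between Day7 and Day14, and the hepatocyte markers are higher at E18.5 than at E11.5.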

How the data were processed

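Biotin-labelled RNA of pooled livers was hybridised to 25 Affymetrix arrays, 2 technical repeats at 11 stages and 1 at the others. The deposited values are linear intensities (12.6 to 25175) for 45101 probe sets, made by the authors with RMA, per the submitters' processing notes; neither its version nor its scaling is stated in the sources used here. Log2 was taken, although the tests had been planned for values already on the log2 scale, and repeats were averaged.

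Platform annotation gave 1 symbol to 34958 sets, several to 932 and none to 9211; RefSeq (GRCm38.p6) changed 0 symbols and lacked 204 sets. The brightest set stood for each of 18194 genes. limma 3.58.1 (lmFit, eBayes) in R 4.3.3 with data.table (version 1.17.8) was fitted to 14 pool means with 3 classes, to age within the 8 fetal and 6 postnatal pools (adult at 126 days), and to 25 arrays for neighbouring stages. Calls needed at least 1 log2 unit and p under 0.05 after Benjamini-Hochberg adjustment across the whole table. P-values measure spread between pools of different age, or technical repeats for steps. The fits were tested on simulated data.

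Members and the 20 other lists (318 of 340 entries measured) were chosen with earlier results of these data known. All members could be named, with values per pool for members of each role and the 3 largest and 3 smallest changes, and of other lists up to 4 called and 2 further genes. Replicate numbers were not used as pairs, because deviations of the first repeats did not correlate above 0.1 in every pair of stages. Alternatives covered scaling, probe sets, dim genes, variance trend, threshold, omitted pools and arrays, class boundaries and time axes.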

Additional observations from a re-analysis of the deposited data

Results flagged for a closer look

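Among the 31 members, 3 had a fetal pool far from the other 7 by Dixon's criterion. Chance meets it in about 1 of 20 groups of samples without order, which a series of ages is not, and 18.4% of all 18194 genes met it in these pools, a larger share than among the members. Mki67 was lowest at E11.5, at 9.811 log2 units, with the nearest pool at 11.435. Nusap1 was also lowest at E11.5, at 8.038, with the nearest pool at 9.327. Ttk was lowest at E18.5, at 6.023, with the nearest pool at 7.293, and E18.5 was measured on 1 array and held the highest skeletal muscle markers (summed intensity 2232). The cause of none of these values was tested.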

How the results depend on the processing

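Direction and calls were checked under other scalings, probe set rules, thresholds, variance models, class boundaries and time axes, and with pools or arrays left out. The share of all genes called in each of these settings is not given here, so the counts below stand without it. Of the recomputed main counts and median midpoint days, 202 were close to those reported and 36 were not. Equal counts were taken as close, and so were counts above 0 of similar size. By this rule both 14 and 24 in late against early pools were close to the reported count. The tally includes the postnatal course and Day3 against Day0, where no member was called. Quantile normalisation gave 2 members lower at E18.5 against E17.5, 2 at birth and 2 at the adult step. Equal housekeeping levels gave 2 members higher over the fetal span and 2 lower at Day21. Leaving Tfrc out of that list, a choice made after seeing the data, gave 3 higher over the fetal span and 2 lower at birth. The mean of all probe sets gave 0 higher over the fetal span, and 1 lower at E18.5, 0 at birth, 4 at Day7, 10 at Day14 and 3 at Day21. With multi-transcript probe sets removed, 12 members were lower in late against early pools, 2 at E18.5, 10 at Day14 and 4 at Day21. Adjusted p alone gave 14 lower and 2 higher over the fetal span, and 7 lower at birth, 15 at Day7, 13 at Day21 and 6 at the adult step. With Day7 in the late class, 0 were lower in early against fetal and 5 in late against early pools, and with Day14 in the early class 17 and 10 were. Even spacing of stages gave 2 lower over the postnatal course. Deviations of the first repeats correlated at -0.573 to 0.73 (median 0.398), above 0.1 in 38 of 55 pairs of stages, so the replicate numbers share a shift in most stages but were not used as pairs. With the replicate block 5 members were lower at E18.5, 10 at Day7, 18 at Day14 and 4 at Day21. Leaving out 1 pool or array gave 3 to 15 lower in early against fetal, 14 to 24 in late against early and 27 to 29 in late against fetal pools, 4 to 9 lower and 0 to 1 higher over the fetal span and 0 over the postnatal course. The steps gave 2 to 4 at E18.5, 1 to 6 at birth, 0 at Day3, 2 to 10 at Day7, 5 to 8 at Day21 and 1 to 2 at the adult step, and 7.95 to 10.4 for the median midpoint day. Some small uncalled differences changed sign. Over the fetal span, in the order quantile normalisation, equal housekeeping levels and these without Tfrc, Ccnb2 became 0.22, 0.25 and 0.31, Prc1 0.15, 0.14 and 0.19, Kif23 0.17, 0.15 and 0.21, and Anln 0.20, 0.11 and 0.17. Kif23 became 0.021 with the mean of all sets and Ccnb2 0.013 without replicate 1. With 1 pool or array set left out, Ccnb2 ranged from -0.181 to 0.066, Mki67 from -0.483 to 1.247, Kif11 from -0.180 to 0.796, Cenpe from -1.283 to 0.308, Prc1 from -0.414 to 0.012, Anln from -0.485 to 0.215 and Ect2 from -1.258 to 0.012. Without all stages with 1 array Cenpe became 0.308, Prc1 0.012, Anln 0.215 and Ect2 0.012. In late against early pools, equal housekeeping levels gave Cdc25c 0.045 and Ttk 0.135, Ttk ranged from -0.687 to 0.080 with 1 pool left out, and Foxm1 was -0.012 without stages with 1 array and -0.029 with Day14 in the early class. In late against fetal pools Foxm1 was 0.054 with equal housekeeping levels, and over the postnatal course -0.017 with the mean of all sets. The cause of these changes was not tested. E18.5, Day7 and Day14 rest on 1 array each, and 12 members lay below the median of all probe sets in the adult pool.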
